A study of Mus musculus with 2 samples.

Results

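The histone genes measured here were the genes whose symbol starts with Hist1h, Hist2h, Hist3h, Hist4h, H1f, H2af or H3f3 and that both deposited count tables list. The rule found 26 of the 6001 genes that the tables share. Of these, 17 were replication-dependent (RD) histone genes, whose symbols start with Hist, and 9 were histone variant genes. The RD genes comprised 4 for the linker histone H1 (Hist1h1a, Hist1h1b, Hist1h1c and Hist1h1e), 5 for H2A (Hist1h2ae, Hist1h2ak, Hist1h2al, Hist1h2ap and Hist3h2a), 5 for H2B (Hist1h2bc, Hist1h2bj, Hist1h2bm, Hist2h2bb and Hist3h2ba) and 3 for H4 (Hist1h4d, Hist1h4i and Hist4h4). No RD gene for H3 was listed in either table. A further 5 histone genes were listed for WT alone and 2 for Cko alone, and these were kept out of the comparisons.

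The counts came from Sc-RNA-Seq (10x Genomics, Chromium Single Cell 3′) of bone marrow cells (BMCs) of fore- and hindlimbs of C57BL6/J mice at postnatal day 21, after lysis of red blood cells. There was 1 library from 1 WT mouse and 1 from 1 Cko mouse. Cko mice (S1P f/f;Osx-Cre) carry 2 floxed alleles of *Mbtps1*, the gene for site-1 protease (S1P), and the Osx1-GFP::Cre transgene, which deletes exon 2 under the osterix promoter. This promoter marks skeletal progenitors, and the study proposes that the transgene is also active in hematopoietic cells. It reports deletion of exon 2 in sorted neutrophils from each Cko mouse that it examined for this. The WT mouse was not an Osx-Cre control, so the deletion and the transgene cannot be told apart, nor can the genotype be told apart from the mouse or the library. *Mbtps1* had 1798 UMIs (unique molecular identifiers, 1 per captured mRNA molecule) in WT and 1072 in Cko, and 3′ tags do not read exon 2, so these counts do not check the deletion.

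RD histones package newly copied DNA. Their genes lie in clusters, have no introns as a rule, and are transcribed mainly during S phase. Their mRNAs end in a conserved stem-loop, bound by the stem-loop binding protein (SLBP), in place of a poly(A) tail. Histone variants are made throughout the cell cycle from polyadenylated mRNAs and replace RD histones at particular sites or in particular cells. In bone marrow, erythroblasts divide several times while they fill with hemoglobin, then condense the nucleus and expel it, whereas neutrophils stop dividing before they mature. Libraries primed on poly(A), as here, capture RD mRNAs in part only. Levels below are therefore levels of captured mRNA given as CPM, the usual scaling of a gene's UMIs by the UMIs of all genes in the cells summed. These 3′ counts hold 1 tag per molecule and were not divided by transcript length, and levels of different genes are given side by side on that scale only.

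The stem-loop was searched for in the annotated 3′ UTRs because it separates mRNAs that end without a poly(A) tail from the others. The search took 16 bases, a stem of 6 bases starting GG, a loop of 4 starting TTT and the reverse complement of the stem. It was present in 11 of 16 coding RD members, in 1 of 9 variants (*H2afx*) and in 44 (0.0660%) of 66638 coding transcripts of all other genes. The sequences of 5 members are shown as DNA, 5′ to 3′ on the coding strand (GENCODE M21, GRCm38), with the stem in capitals and the loop in lower case.
Hist1h2ap: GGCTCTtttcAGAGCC
Hist3h2ba: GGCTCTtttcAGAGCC
Hist1h4d: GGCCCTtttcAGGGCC
Hist1h4i: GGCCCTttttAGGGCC
H2afx: GGCCCTtttaAGGGCC
The annotated transcript of *Hist1h2ap* (chromosome 13, 21833026 to 21833507, minus strand) ends 3 bases after the stem-loop. Those of *Hist1h1c*, *Hist1h1e*, *Hist1h4d*, *Hist3h2a* and *Hist4h4* run on for 840, 1153, 770, 1643 and 2445 bases. The poly(A) signal AATAAA, on the coding strand, followed the stem-loop in *Hist1h1c*, *Hist1h2ae*, *Hist3h2a*, *Hist3h2ba* and *Hist4h4*. *Hist1h2bc* (chromosome 13, 23684199 to 23692908, plus strand) had a 3′ UTR of 742 bases with no stem-loop. The annotated 3′ UTRs of *Hist1h1b*, *Hist1h2ak* and *Hist2h2bb* have a length of 0, so the search says nothing of them. *Hist1h2al* is annotated as a processed pseudogene.

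Many of these genes are near copies of each other. Of the 98-base windows in the last 300 bases of the annotated transcript, 100% were shared with another gene for *Hist1h2ap*, with 17 other genes, and for *Hist1h1e*, with 2. The share was 60.1% for *Hist1h2bj* and between 3.34% and 26.1% for 8 others (*Hist1h2ae*, *Hist1h2ak*, *Hist1h2al*, *Hist1h2bm*, *Hist2h2bb*, *H2afz*, *H3f3a* and *H3f3b*). In the other 15 members it was 0. The counts of members with shared windows, *Hist1h2ap* above all, therefore depend on how reads were assigned among copies.

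After barcodes with fewer than 200 genes were left out, 6271 WT and 3662 Cko cells remained, with medians of 6977 and 7440 UMIs. Clusters of both libraries together were named from marker genes, and "-like" marks a name that rests on these markers alone. The late erythroid-like class drew most on cluster J1 in WT (885 of 2228 cells) and on J8 in Cko (140 of 420), and the early class on J2 in both (722 of 1368 and 115 of 157). Hemoglobin mRNA in cells that should lack it measures free RNA in the droplets. Hemoglobin took 1.22% of the UMIs of early B-like cells in WT and 0.161% in Cko, and 1.33% and 0.145% of those of mature neutrophil-like cells. The libraries shared 28 barcodes. Because each genotype has 1 library, no test across samples was possible, and the 95% intervals below are exact and cover counting error only.

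RD histones made up a small share of captured mRNA and variants a large one. RD members summed to 1960.0 CPM over all WT cells, which is 0.196% of UMIs (110382 UMIs), and to 915 CPM, or 0.0915%, over all Cko cells (31489 UMIs). Variants summed to 10131 CPM in WT and 9987 CPM in Cko. Most variant UMIs came from *H2afz* (H2A.Z, found at promoters), *H3f3a* and *H3f3b* (which encode H3.3, the H3 deposited outside S phase). *Hist1h2ap* alone held 66.1% of RD UMIs in WT and 47.5% in Cko. The other 16 RD genes held between 0.618% and 6.10% each in WT and between 0.889% and 8.97% in Cko.

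RD levels followed the class of cell. In WT the late erythroid-like class was highest, at 2864 CPM (95% interval 2836 to 2892), then macrophage-like cells at 2384 CPM (2232 to 2544) and early B-like cells at 2325 CPM (2284 to 2366). The intervals of the last 2 overlap. The 51 macrophage-like WT cells had 21.5% hemoglobin, the highest share outside the erythroid classes, and its part in their RD level was not tested. Early erythroid-like cells had 1894 CPM, monocyte-like cells 1454, late B-like cells 1379, immature neutrophil-like cells 1246 and promyelocyte-like cells 904. Stromal-like cells had 472 CPM (382 to 576) and mature neutrophil-like cells 196 CPM (164 to 231), the lowest of the 12 named classes. In Cko the order also ran from late erythroid-like (1769.8 CPM) and early B-like cells (1616) down to mature neutrophil-like cells (86.1).

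Variants were ordered otherwise. Early B-like cells were highest in both libraries, at 14936 CPM in WT and 14067 in Cko, followed by monocyte-like cells at 13757 and 13440. Late erythroid-like cells, first for RD histones, had 9106 and 8448 CPM. Mature neutrophil-like (4876 and 4824) and stromal-like cells (4787 and 4384) were lowest. The spread from the lowest to the highest class was thus far narrower for variants than for RD histones.

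**Figure D1:**
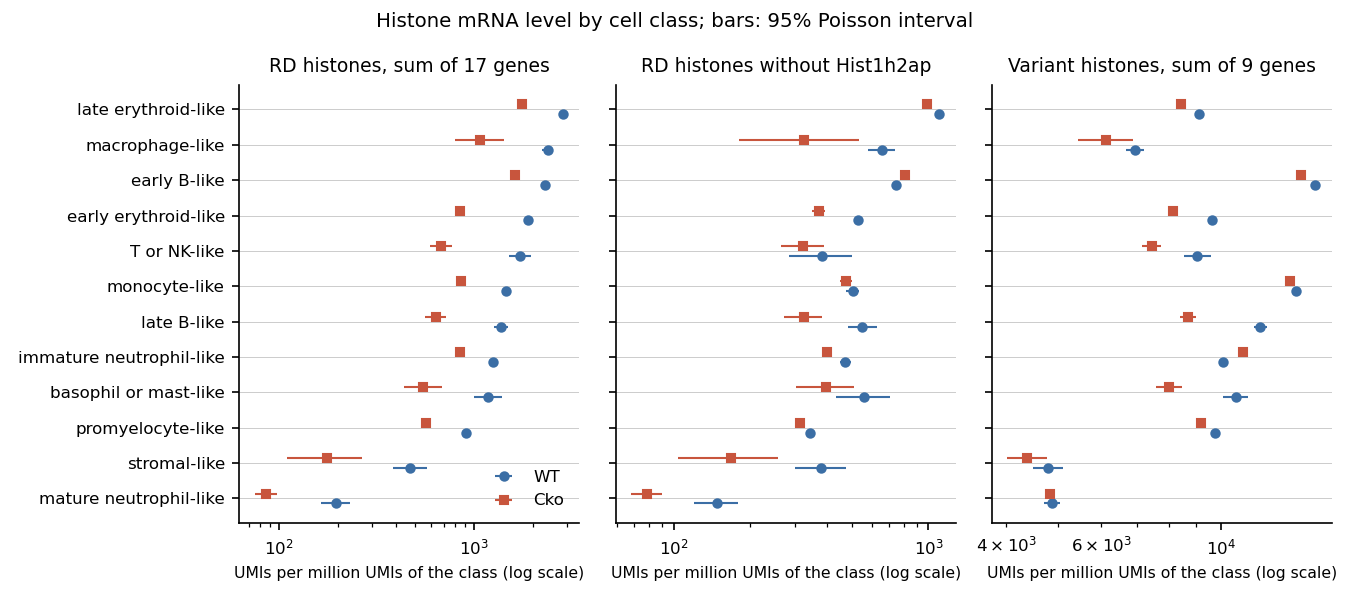
Levels of RD histones (left), of RD histones without *Hist1h2ap* (middle) and of variants (right) in the 12 named classes, in CPM on a log scale, for WT (circles) and Cko (squares). Bars are exact Poisson intervals. Mature neutrophil-like cells lie lowest for RD histones at 196 CPM in WT and 86.1 in Cko, and early B-like cells highest for variants at 14936 and 14067.

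Within a class, cells differed widely. The median early B-like cell gave 0.227% of its UMIs to RD histones in WT and 0.167% in Cko, the 10th percentile 0.0180% and 0.0153%, and the 90th 0.594% and 0.365%. In mature neutrophil-like cells the median was 0 in both libraries. The highest WT late erythroid-like cell reached 1.30%. These shares were not thinned to a common depth.

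Cell cycle state was read from other genes. Each cell was thinned to 2500 UMIs, and UMIs of 44 S phase genes and 47 G2 and M phase genes, none of them a histone gene, were counted. S-high cells had at least 5 S UMIs and more S than G2 and M UMIs (1354 WT, 704 Cko). Cycle-low cells had at most 1 UMI of each list (283 WT, 658 Cko). G2M-high cells, with at least 5 G2 and M UMIs and at least as many as S, were 65.8% of WT and 48.9% of Cko cells, so that group is broad. Cells with 4 or 5 S UMIs, next to the limit, were 7.61% and 9.01%.

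RD histones were far lower in cycle-low cells. The RD sum was 1772 CPM in S-high and 408 CPM in cycle-low cells of WT, a log2 ratio of 2.12 (2.01 to 2.24), and 863 and 148 CPM in Cko, 2.55 (2.42 to 2.68). Over all cells it was 1960.0 CPM in WT and 915 in Cko, above the S-high level. S-high was therefore not the cycle group with the highest RD level in either library. Without *Hist1h2ap* the log2 ratio was 0.61 in WT and 1.72 in Cko. Variants summed to 10105 and 3712 CPM in WT (1.44) and to 9527 and 4697 CPM in Cko (1.02). Past a fold of 1.5 among genes with at least 100 UMIs, 13 RD members were higher and 3 lower in S-high cells of WT. Over all 5439 genes with that many UMIs, 66.6% were higher and 14.4% lower. In Cko 10 of the 12 RD members with enough UMIs were higher and none lower (59.7% higher and 14.7% lower over 5272 genes). Late erythroid-like cells were 158 of the 283 cycle-low cells in WT and 111 of 658 in Cko, so cell class moves with this contrast. With hemoglobin UMIs left out of the total, the log2 ratios of the RD sum were 1.29 and 2.30. The median log2 ratio was 3.05 over RD members, 1.76 over variants and 1.25 over all genes in WT, and 2.42, 1.49 and 0.92 in Cko. These medians leave out genes with no UMI in cycle-low cells, which have no finite ratio. Among RD members these were *Hist1h2bj* in WT and *Hist1h2bj* and *Hist1h2ak* in Cko. The RD medians are lower than they would be with them, above all in Cko, and are not to be compared between the libraries.

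*Hist1h2ap*, an H2A gene and the RD gene with the most UMIs, was far higher in S-high cells. It had 1188 CPM in S-high and 24.1 CPM in cycle-low WT cells, 49.3-fold (35.7 to 70.0), and 402 and 7.07 CPM in Cko, 56.8-fold (38.1 to 88.8). *Hist1h1b*, for the linker histone H1.5, had 114 and 5.86 CPM in WT, with 9 UMIs in cycle-low cells, and 82.2 and 1.18 CPM in Cko, with 4. The H4 gene *Hist1h4i* had 125 and 17.6 CPM in WT and 92.5 and 14.4 in Cko. The H2B gene *Hist1h2bj* had no UMI in cycle-low cells of either library, which allows up to 3 counts, against 18.9 and 17.1 CPM in S-high cells. *Hist1h1a*, *Hist1h2ae*, *Hist1h2ak*, *Hist1h2bm*, *Hist1h4d*, *Hist2h2bb* and *Hist4h4* were likewise at 3.91 CPM or less in cycle-low cells of both libraries.

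Another set of RD genes was captured in cycle-low cells at a like or higher level in WT. In WT, the H2B gene *Hist1h2bc* had 66.1 CPM in S-high and 168 CPM in cycle-low cells (log2 ratio -1.34), the H1 gene *Hist1h1c* 45.9 and 113 CPM (-1.30) and the H2A gene *Hist3h2a* 13.5 and 21.5 CPM (-0.67). *Hist3h2ba*, an H2B gene that neighbours *Hist3h2a* on chromosome 11, had 14.1 and 15.6 CPM (-0.15). In Cko the log2 ratios of these 4 genes were 0.68, 0.27, -0.31 and 0.02. Single cells weighed on some of these counts. In WT the most UMIs in 1 cell were 87 for *Hist1h2bc* and 104 for *Hist1h1c*, each in a cell of no named class with 13638 UMIs. The part of such cells in the ratios was not tested. Without hemoglobin UMIs in the total, *Hist3h2ba* had -0.98 in WT and -0.23 in Cko. With the class held to late erythroid-like cells, the order in WT was the opposite, as *Hist1h2bc* had 173 CPM in S-high and 107 in cycle-low cells, *Hist1h1c* 129 and 40.6 and *Hist3h2ba* 64.7 and 20.9. *Hist1h2ap* had 2359 and 19.7 CPM there, a far wider gap. Of the 4, *Hist1h1c*, *Hist3h2a* and *Hist3h2ba* carry AATAAA after the stem-loop, and *Hist1h2bc* has no stem-loop in its annotated 3′ UTR. *Hist1h2ae* and *Hist4h4* carry the same order of stem-loop and AATAAA and had log2 ratios of 3.02 and 4.14 in WT.

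Variants split as well. *H2afv* (a second H2A.Z), *H2afx* (phosphorylated at DNA breaks) and *H2afz* had log2 ratios of 3.05, 2.96 and 2.79 in WT and 2.89, 3.25 and 1.82 in Cko. *H2afy*, for macroH2A, had 2.38 and 2.26. *H3f3b* had 1.20 and 0.85 and *H2afj* 1.11 and 1.03. *H3f3a*, also for H3.3, was close to even, at 2260 and 1737 CPM in WT (0.38) and 1999 and 2056 CPM in Cko (-0.04). The linker variant *H1f0* had 0.56 and 1.15. Without hemoglobin UMIs in the total, the WT values of *H3f3a* and *H1f0* turned to -0.45 and -0.27.

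Levels by S phase UMIs alone gave a graded picture. RD histones had 670.0 CPM in WT cells with at most 1 thinned S UMI, 1597 at 2 to 4, 1808 at 5 to 9, 2034 at 10 to 19 and 2900 at 20 or more. In Cko the values were 303, 853, 1004, 1179 and 1807 CPM. *H3f3a* ran from 2484 to 3349 CPM between the lowest and the highest of these bins in WT. These bins were chosen after the data were seen. Over the 12 classes of both libraries (24 points, not independent), the genes whose log2 CPM was most like that of the RD sum were *Mki67* (Pearson r 0.966), *Ccna2* (0.959) and *1190002F15Rik* (0.947). *Mki67* and *Ccna2* mark dividing cells.

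Genes that make or carry histones were higher in S-high cells too. Of 15 genes for processing and transcription of histone pre-mRNA, 15 were past the fold in WT and 14 in Cko, and none was lower (66.6% and 59.7% higher over all genes), with medians of 2.84 and 2.04 against 1.25 and 0.92 over all genes. *Slbp* had 571 CPM in S-high and 35.8 in cycle-low WT cells, 15.9-fold, and 406 and 40.1 CPM in Cko, 10.1-fold. *Snrpf* (12.3-fold) and *Snrpg* (10.3-fold), for Sm proteins of spliceosomal snRNPs, followed in WT, and *Snrpf* (8.04-fold) and *Casp8ap2* (7.30-fold) in Cko. *Lsm10*, a part of the U7 snRNP that cuts histone pre-mRNA, was lowest, at 1.58-fold in WT and 0.97-fold in Cko. *Cpsf2* (3.40-fold) and *Cpsf3* (3.57-fold) came next in WT, and *Ncbp1* (1.75-fold) and *Cpsf3* (1.79-fold) in Cko.

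Of 27 histone chaperone and deposition genes, 27 were higher in WT and 26 in Cko (again beside 66.6% and 59.7% over all genes), with medians of 3.02 and 2.75 against 1.25 and 0.92. *Asf1b*, which passes H3 and H4 to the replication fork, had 140 and 4.56 CPM in WT and 167 and 4.42 in Cko. *Nasp*, a carrier of soluble H3 and H4, had 276 and 12.4 CPM and 196 and 7.37. *Chaf1a*, of the assembly factor CAF-1, had 71.5 and 3.91 CPM in WT and 49.4 and 0.295 in Cko, where a single UMI was seen in cycle-low cells (log2 ratio 7.39, 4.90 to 12.70). The lowest ratios were those of *Supt6* (0.89), *Daxx* (0.91) and *Ep400* (1.01) in WT and of *Daxx* (0.26), *Supt6* (0.88) and *Ubn1* (0.97) in Cko. *Daxx* and *Ubn1* deposit H3.3 outside replication.

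Within 1 class, G2M-high and S-high cells could be compared with the class held fixed. In early B-like cells 4 RD members and 4 variants were higher in G2M-high cells of WT and none lower (9.33% higher and 5.47% lower over 4224 genes), and 5 and 4 in Cko (9.85% and 6.08% over 3979). *H2afx* had 472 CPM in S-high and 1624 in G2M-high cells in WT, 3.44-fold (3.18 to 3.72), and 531 and 1846 CPM in Cko, 3.47-fold (3.22 to 3.75). *Hist3h2a* had 17.9 and 62.4 CPM in WT and 26.5 and 68.4 in Cko. *Hist3h2ba* had 9.93 and 33.6 CPM in WT and 10.4 and 51.6 in Cko. *H2afv* (927 and 1721 CPM in WT), *H1f0* (44.4 and 83.6) and *H1fx* (19.2 and 50.3) were also higher in G2M-high cells. *H2afz* differed little, at 4639 and 4956 CPM. *Hist1h2ap* had 1268 and 1707 CPM in WT and 646 and 891 in Cko. In early erythroid-like cells of WT, *Hist3h2ba* (log2 ratio 0.62) and *H2afx* (0.72) passed the fold and were higher in G2M-high cells, and no member was lower (1.29% higher and 0.603% lower over 4979 genes).

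*H2afx* was higher in G2M-high cells past the fold in each of the 5 classes compared and in both libraries. In Cko early erythroid-like cells its log2 ratio was 1.02, and 2 RD members, *Hist1h1b* (-0.84) and *Hist1h2bc* (-1.27), were lower (3.55% of 3295 genes higher, 1.97% lower). In promyelocyte-like cells *H2afx* had 1.06 in WT and 1.14 in Cko. *Hist1h2bc* was lower there in both (-0.97 and -0.74), and *Hist1h1e* (0.96) was higher in Cko (4.77% higher and 4.36% lower over 4614 genes in WT, 3.76% and 3.15% over 4542 in Cko). In immature neutrophil-like cells *H2afx* had 1.5 and 1.45, *Hist1h2ap* 0.64 and 0.60, and *Hist1h4i* was lower at -0.97 and -0.83 (14.2% higher and 5.3% lower over 2357 genes in WT, 15.2% and 6.77% over 3266 in Cko). In monocyte-like cells *H2afx* had 1.76 and 1.69, and no member was lower (10.4% higher and 5.24% lower over 2365 genes in WT, 12.1% and 8.09% over 3126 in Cko).

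In erythroid cells RD histones were higher in both late stages than in the first, and which late stage was highest depended on whether hemoglobin counted in the total. Cells of the erythroid classes were put into 4 stages by the share of UMIs from 4 hemoglobin genes, under 1%, 1 to 10%, 10 to 50% and at least 50%, with 564, 550, 815 and 1667 cells in WT and 113, 46, 114 and 304 in Cko. The RD sum over these stages was 1269, 2174, 3598 and 2469.8 CPM in WT and 730.4, 986, 2348 and 1560.4 CPM in Cko. Variants had 8434, 10478, 12031 and 7594 CPM in WT and 7446, 10201, 12222 and 6396 in Cko. As shares of all UMIs, both sets were thus highest in the third stage in both libraries. With hemoglobin UMIs left out of the total the last stage was highest instead. The RD sum in the third and last stage was then 4859 and 8494 CPM in WT and 3387 and 5223 in Cko, and variants had 16249 and 26116 CPM in WT and 17635 and 21409 in Cko.

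Hemoglobin mRNA lowers the share of every other gene in the last stage, where it took 70.9% of UMIs in WT and 70.1% in Cko. From the first to the last stage the median log2 ratio over all genes was -2.38 in WT and -2.12 in Cko. Against that, 15 of 17 RD members were past the fold upward in WT and none downward (9.06% of 4944 genes higher and 81.7% lower), and 5 of 9 upward and 1 downward in Cko (11.9% and 77.2% of 3451). Of the variants, 2 were higher and 5 lower in each library. With hemoglobin UMIs left out of the total, 17 of 17 RD members in WT and 9 of 9 in Cko were past the fold upward, and 4 variants were higher and 1 (*H2afy*) lower in each library. The RD sum had a log2 ratio of 0.96 (0.93 to 0.99) in WT and 1.10 (1.01 to 1.18) in Cko. With hemoglobin UMIs left out of the total it was 2.74 and 2.84, and that of variants 1.63 and 1.52. From the first to the third stage 17 of 17 RD members were higher in WT (13.6% higher and 53.3% lower over 5011 genes) and 7 of 8 in Cko (15.8% and 54.6% over 3458). When each library was clustered on its own, a Cko cluster of 274 cells went unnamed and the last over first ratio in Cko was -2.62.

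As shares of all UMIs, most RD genes had their highest level in the third stage and the others mostly in the last. In WT 11 RD members were highest at 10 to 50% hemoglobin and 6 at 50% or more, and in Cko 11 and 4. *Hist1h2ap* had 907, 1591, 2464 and 1431 CPM over the 4 stages in WT and 414, 498, 1348 and 539 in Cko. *Hist1h1b* had 69.4, 124, 225 and 135 CPM in WT and 39.9, 80.8, 164 and 57.2 in Cko. Both genes thus had their highest value at 10 to 50% in each library on this scale. Without hemoglobin UMIs in the total, 1 RD member (*Hist1h1a*) was highest in the third stage and 16 in the last in WT, and 6 and 11 in Cko. On that scale the third and last stage had 3328 and 4922 CPM of *Hist1h2ap* in WT, and 1945 and 1803 in Cko. *Hist1h1b* had 304 and 465 CPM in WT and 237 and 191 in Cko.

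*Hist1h1c*, *Hist1h2bc*, *Hist3h2a* and *Hist3h2ba* were highest in the last stage in both libraries on either scale. *Hist3h2ba* differed most between stages, with 3.91, 16.7, 64.6 and 134 CPM in WT and 3.45, 19.1, 68.8 and 172 CPM in Cko. From the first to the last stage it was 34.3-fold higher in WT (24.9 to 48.4) and 49.95-fold in Cko (26.1 to 110.0, from 9 UMIs). It was thus at a like level in the 2 libraries in the first 3 stages. *Hist1h2bc* had 48.0, 39.9, 124 and 202 CPM in WT and 72.9, 35.9, 108 and 378 in Cko. *Hist1h1c* had 21.9, 37.1, 78.4 and 106 CPM and 23.0, 29.2, 52.4 and 76.8. *Hist3h2a* had 11.8, 9.14, 31.2 and 57.3 CPM and 15.7, 5.61, 32.1 and 88.4. These are the 4 RD genes that were not higher, as shares of all UMIs, in S-high than in cycle-low cells of WT. Most WT cycle-low cells were late erythroid-like, so the cycle and stage contrasts are not independent. With the class held to late erythroid-like cells, *Hist1h1c*, *Hist1h2bc* and *Hist3h2ba* were higher in S-high cells, as given above. *Hist3h2ba* was seen, after thinning, in 22.4% of WT and 16.7% of Cko late erythroid-like cells (40.0% and 34.0% unthinned, medians of 5813.5 and 8025.5 UMIs) and in 0 of 171 WT and 0.182% of 549 Cko mature neutrophil-like cells (medians of 3758 and 4446 UMIs), where the exact binomial upper limit for WT is 2.13%.

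**Figure D2:**
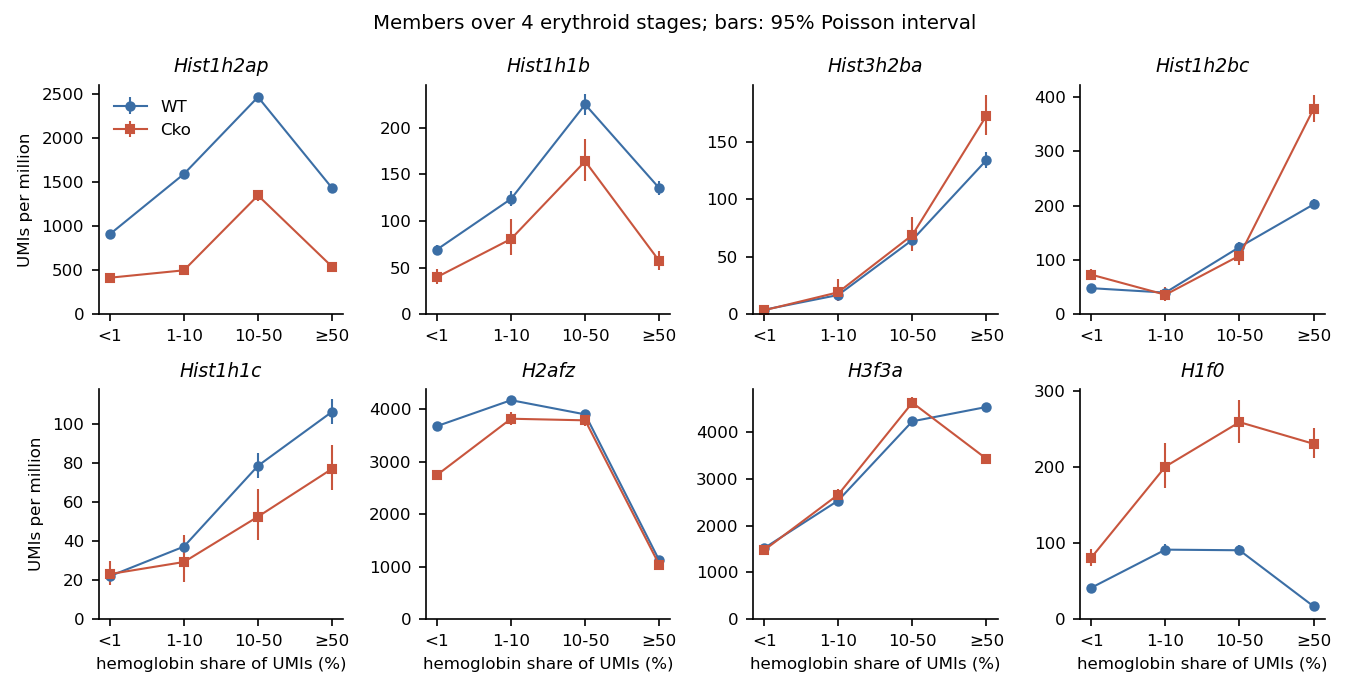
Levels of 8 members in CPM of all UMIs, hemoglobin included, over 4 erythroid stages set by the hemoglobin share of UMIs, for WT (circles) and Cko (squares), with exact Poisson intervals. *Hist1h2ap* and *Hist1h1b* are highest at 10 to 50%, *Hist3h2ba*, *Hist1h2bc* and *Hist1h1c* at 50% or more, and *H1f0* in the last stage is at 16.8 CPM in WT and 231 in Cko.

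*H3f3a* was the variant past the fold upward from the first to the last stage in both libraries. It had 1517, 2537, 4233 and 4540 CPM over the stages in WT and 1475, 2665, 4633 and 3431 in Cko, so that it was 2.99-fold (2.94 to 3.05) and 2.33-fold (2.24 to 2.42) higher in the last stage than in the first. *H3f3b*, which encodes the same protein, had 2034, 2437, 2396 and 868 CPM in WT. *H2afz* had 3675 CPM in the first stage and 1118 in the last in WT, and 2744 and 1034 in Cko. *H2afx* had 274, 261, 497 and 594 CPM in WT and 313, 237, 502 and 435 in Cko. *H2afy* had its highest level in the first stage, at 111 CPM in WT and 163 in Cko, and 14.9 and 10.2 CPM in the last. *H2afx* also passed the fold upward in WT (log2 ratio 1.12) and *H1f0* in Cko (1.51). Without hemoglobin UMIs in the total, the last over first log2 ratio of *H2afz* turned from -1.72 to 0.06 in WT and from -1.41 to 0.33 in Cko. That of *H3f3b* turned from -1.23 to 0.55 and from -0.90 to 0.85, and that of *H1f0* in WT from -1.30 to 0.48.

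The last stage held cells of several clusters. In cluster J1, where hemoglobin was 66.6% of UMIs in WT and 62.4% in Cko, RD histones had 3324 and 3153 CPM and genes of G2 and M phase 16858 and 15954 CPM. In J8, with 81.4% and 78.2% hemoglobin, RD histones had 454 and 124 CPM, and in J16, with 90.3% and 88.2%, they had 111 and 43.8 CPM. *Hist1h2ap* made up most of the RD sum in J1 of WT (1982 CPM), yet it had 57.7 CPM in J8, where *Hist1h2bc*, at 175 CPM, was the leading RD gene. *H3f3a* had 2054 CPM in J8 of WT and 1372 in Cko.

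**Figure D3:**
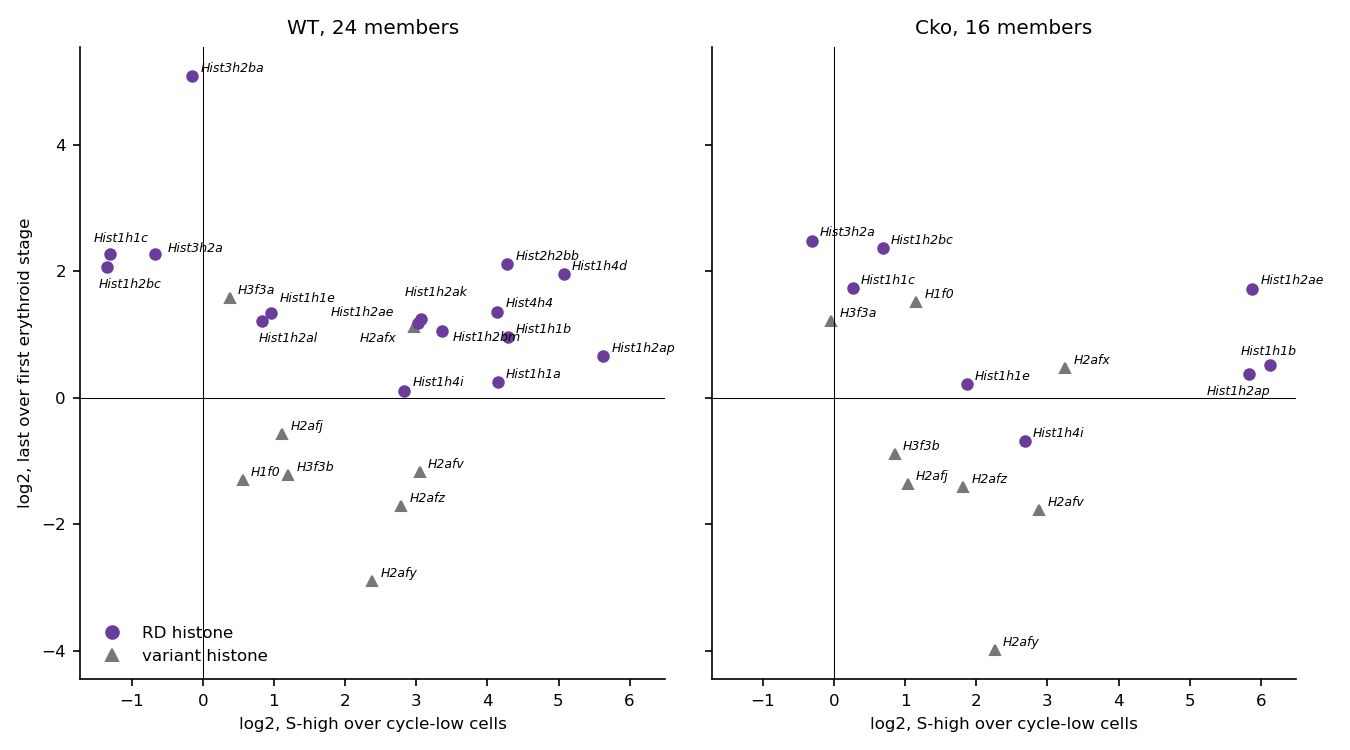
Log2 ratio of S-high over cycle-low cells (x) against log2 ratio of the last over the first erythroid stage (y) for the members with at least 100 UMIs in both contrasts and a UMI in each group, 24 in WT (left) and 16 in Cko (right), RD histones as circles and variants as triangles. *Hist3h2ba* lies at -0.15 and 5.10 in WT, and *Hist1h2ap* at 5.62 and 0.66.

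As shares of all UMIs, hemoglobin included, genes linked to chromatin condensation in terminal erythroid cells were mostly lower in the last stage, as were most genes. Of 15 such genes 1 was higher and 11 lower in the last than in the first stage in WT, with a median log2 ratio of -1.11, and of 13 with enough UMIs 1 was higher and 10 lower in Cko (-1.10). Over all genes 81.7% in WT and 77.2% in Cko were lower, with medians of -2.38 and -2.12. Leaving hemoglobin UMIs out of the total raises each of these ratios by the same amount within a library. For *H2afz* the ratio went from -1.72 to 0.06 in WT and from -1.41 to 0.33 in Cko. The direction of the list medians thus depends on the total, and counts without hemoglobin were not made for this list. The gene above the fold was *Xpo7*, for a nuclear transport receptor, at 4.91 and 183 CPM in WT and 3.45 and 190.0 CPM in Cko. *Hmgb2* was close to even (1731 and 1878 CPM in WT, 1513 and 1472 in Cko). *Setd8* in WT (-0.34) and *Rac1* in Cko (-0.52) came next. *Kat2a* (-6.55 and -5.04, with 3 and 2 UMIs in the last stage) and *Hmgn1* (-5.54 and -6.53) were among the lowest in both libraries, with *Hdac2* in WT (-3.42) and *Hdac3* in Cko (-3.90).

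In the neutrophil and B lineages the most mature class had the lowest RD level. RD histones had 904, 1246 and 196 CPM in promyelocyte-, immature neutrophil- and mature neutrophil-like cells of WT and 564, 847 and 86.1 CPM in Cko. Mature over immature, the log2 ratio was -2.67 (-2.93 to -2.42) in WT and -3.30 (-3.50 to -3.10) in Cko, and that of variants -1.05 and -1.19. Of 6 RD members with enough UMIs 4 were lower in WT and none higher (41.2% of 2612 genes lower, 8.35% higher), and 8 of 8 in Cko (42.6% of 3724 lower, 9.53% higher). Mature over promyelocyte-like, the RD sum had -2.21 in WT and -2.71 in Cko, with 7 of 10 members lower and 1 higher in WT (71.3% of 4727 genes lower, 9.84% higher) and 9 of 9 lower in Cko (69.9% of 4837 lower, 12.8% higher). The RD member above promyelocyte-like cells was *Hist1h1e*, at 22.2 and 44.3 CPM from 31 UMIs. The WT value depended on which cells were named mature neutrophil-like, since it was 0.06 at a finer clustering and 0.86 with WT clustered on its own, where the class was a cluster of 139 cells led by *Sparc*, *Retnlg* and *Ctsl*. Mature over immature, *H3f3a* (-0.06 and -0.11) and *H2afj* (-0.15 and -0.02) did not pass the fold. In the same comparison *H2afx* had -4.16 in WT and -4.46 in Cko. Late B-like cells had 1379 CPM of RD histones against 2325 in early B-like cells of WT (-0.75), with 7 of 13 members lower (48.2% of 4356 genes lower, 9.21% higher), and 635 against 1616 in Cko (-1.35), with 13 of 15 lower (45.4% of 4180 lower, 12.1% higher). Most genes were lower too. In WT and Cko the median log2 ratio over all genes was -0.40 and -0.42 mature over immature. It was -1.40 and -1.46 mature over promyelocyte-like, and -0.55 and -0.50 late over early B-like. In WT the counts of 7 of 10 and 7 of 13 members were near the shares over all genes.

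Captured RD histone mRNA was lower in Cko than in WT in 12 of 12 named classes, and without *Hist1h2ap* in 11 of 12. All rest on the same 2 libraries, and some classes were small. In WT and Cko there were 51 and 9 macrophage-like, 29 and 18 stromal-like, 18 and 23 basophil or mast-like and 20 and 63 T or NK-like cells. Hemoglobin took 7.19% of the UMIs of T or NK-like cells in WT and 0.104% in Cko, and 4.13% and 0.0920% for basophil or mast-like cells. *Hist1h2ap* made up more than 50% of the difference in CPM in 10 classes, and 37.3% in mature neutrophil-like and 28.8% in stromal-like cells. Over both erythroid classes the RD sum was 2293 CPM in WT and 1326 in Cko, a log2 ratio of -0.79 (-0.82 to -0.76), and without *Hist1h2ap* 761 and 692 CPM (-0.14, -0.18 to -0.09). The late erythroid-like class mixes clusters of unlike RD level. Cluster J1, with a high level, held 885 of its 2228 cells in WT and 105 of 420 in Cko. Within J1 the RD levels given above were close in the 2 libraries, and within J8 and J16 they were lower in Cko. The part of this mix in the difference was not tested. Over the promyelocyte- and neutrophil-like classes it was 965 and 590 CPM (-0.71, -0.75 to -0.67), and without *Hist1h2ap* -0.27. In early B-like cells the RD sum had a log2 ratio of -0.52, and without *Hist1h2ap*, of 0.13. Variants differed less, by -0.18 over the erythroid and -0.06 over the neutrophil classes, and the latter became 0.04 with each library clustered on its own. Under that clustering the RD sum over the erythroid classes differed by -1.78.

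*Hist1h2ap* was lower in Cko in 12 of 12 classes. It had 1582 CPM in WT and 806 in Cko in early B-like cells (0.51-fold, 0.49 to 0.53), 1366 and 475 in early erythroid-like cells (0.35-fold), 1769 and 780.0 in late erythroid-like cells (0.44-fold), 561 and 252 in promyelocyte-like cells (0.45-fold), 775 and 446 in immature neutrophil-like cells (0.58-fold) and 950.2 and 380.2 in monocyte-like cells (0.40-fold). Within early B-like cells its log2 ratio was -0.97 among S-high and -0.94 among G2M-high cells. In mature neutrophil-like cells, which do not divide, 48.6 CPM in WT and 7.72 in Cko were found, and 10.5% and 2.55% of these cells held a UMI after thinning (14.04% and 3.64% unthinned). Free RNA, by the hemoglobin shares above, was higher in WT, and its part in the difference was not tested. All 98-base windows of its annotated 3′ end occur in other genes, 5 histone genes were listed in WT alone, and their part in the difference was not tested either.

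*Hist1h1b* had a lower level in Cko in 11 of 12 classes, with log2 ratios of -1.08 in early and -0.86 in late erythroid-like, -0.82 in immature neutrophil-like and -0.16 in early B-like cells. *Hist2h2bb* had -0.97 and -1.67 in the erythroid classes and 0.01 in early B-like cells. Some RD genes were higher in Cko. *Hist1h2ae* had 36.9 and 63.3 CPM in early B-like cells, and *Hist4h4* 10.9 and 21.4. In early erythroid-like cells 9 of 17 RD members were past the fold downward and none upward (9.5% of 5063 genes lower, 9.92% higher), and in late erythroid-like cells 7 and 2 (7.64% of 4175 lower, 8.65% higher). In early B-like cells 1 was lower and 2 higher (2.92% and 2.09% of 4826), in promyelocyte-like cells 4 of 13 lower and none higher (2.92% and 2.26% of 5137), and in immature neutrophil-like cells 3 of 12 lower and 1 higher (2.01% and 3.73% of 3990).

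*H1f0*, the linker variant H1.0 that builds up in cells as they differentiate, was the member furthest above WT over both the erythroid classes (log2 ratio 1.66) and the neutrophil classes (1.34). It had 36.0 CPM (513 UMIs) in WT and 247 CPM (915 UMIs) in Cko in late erythroid-like cells, 6.87-fold (6.16 to 7.67). It had 103 and 280 CPM in immature neutrophil-like cells, 2.71-fold (2.42 to 3.05), and 51.9 and 123 CPM in promyelocyte-like cells, 2.37-fold (2.10 to 2.69). The difference was smaller in early erythroid-like (70.1 and 102 CPM), early B-like (72.6 and 101 CPM) and monocyte-like cells (177 and 202 CPM). It was lower in Cko in 4 of the 12 classes. By erythroid stage *H1f0* had 41.3, 91.5, 90.7 and 16.8 CPM in WT and 80.9, 201, 260 and 231 CPM in Cko. In the last stage the libraries were thus furthest apart, and in cluster J1 the levels were 21.4 and 509 CPM. After thinning, 5.16% of WT and 19.8% of Cko late erythroid-like cells held an *H1f0* UMI (8.75% and 28.3% unthinned), and 7.60% and 6.92% of mature neutrophil-like cells. The WT share in late erythroid-like cells was thus no higher than in mature neutrophil-like cells.

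**Figure D4:**
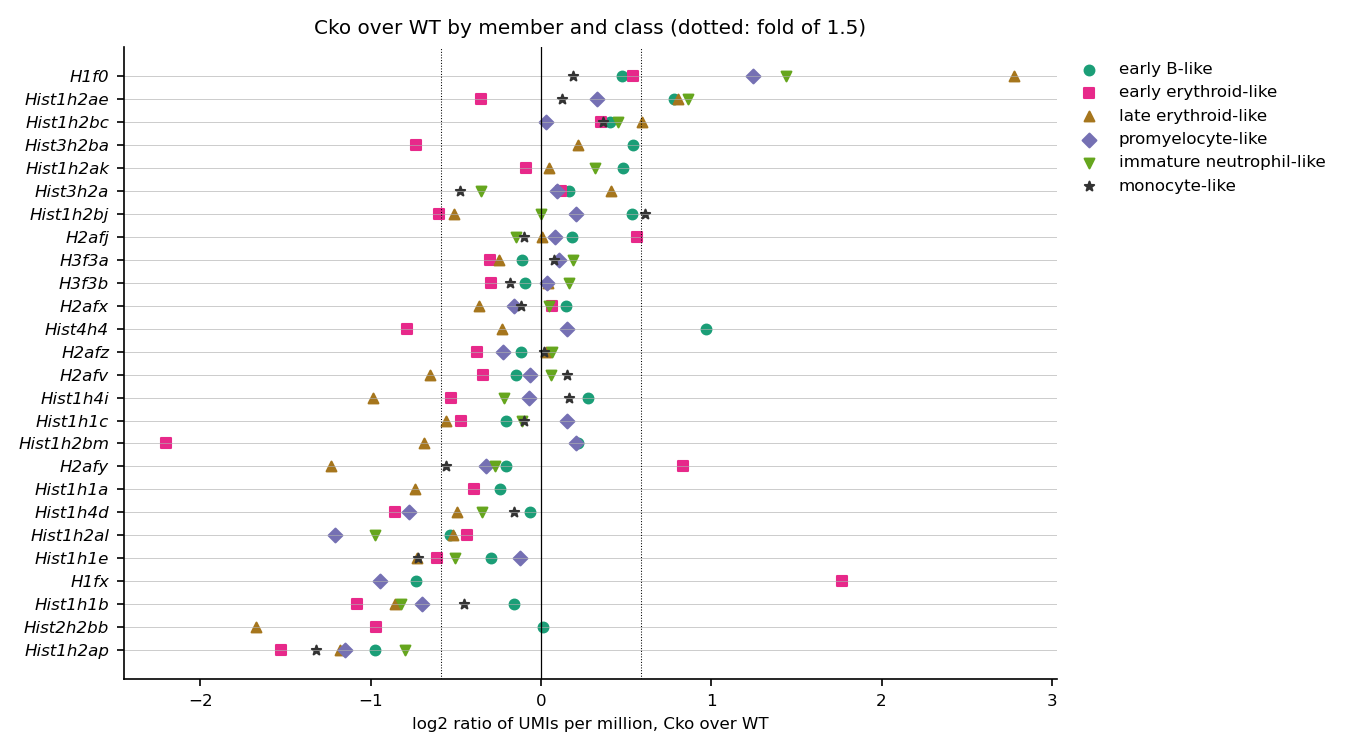
Log2 ratio of CPM, Cko over WT (x), for each member (rows, ordered by median) in 6 classes (colours and marker shapes), for members with at least 100 UMIs over both libraries in the class. Dotted lines mark a fold of 1.5. *Hist1h2ap* lies between -1.53 and -0.80 in these classes, and *H1f0* between 0.19 and 2.78.

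Over both erythroid classes 6 of 17 RD members were lower past the fold and 1 was higher (6.42% and 6.97% of 5253 genes), and over the promyelocyte- and neutrophil-like classes 3 of 16 were lower and none higher (6.3% and 3.25% of 5331). Variants past the fold were 2 higher and none lower over the erythroid and 1 higher and 2 lower over the neutrophil classes. None of the 15 histone pre-mRNA processing genes passed the fold in either set of classes, with medians of -0.30 and -0.27. Of the 27 chaperone genes 4 and 2 were lower, and of the 15 chromatin condensation genes 2 and 1. The share of cells in cycle also differed between the 2 libraries, since S phase genes had 4779 CPM over all WT and 3036 CPM over all Cko cells and cycle-low cells were 4.51% of WT and 18.0% of Cko. The mix of classes differed as well. Late erythroid-like cells were 2228 of 6271 in WT and 420 of 3662 in Cko, and mature neutrophil-like cells 171 and 549. Over all cells the 2 cannot be told apart. The part of cycling was not tested beyond the values within early B-like cells.

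Promoters, 250 bases before to 50 after the start in RefSeq (GRCm38.p6), were matched for 14 RD members and 8 variants. *Hist1h2ap*, *Hist1h2bc*, *Hist1h2al* and *H2afx* had no single matched promoter, so the motif counts leave out the RD gene with the most UMIs. TATAAA, on either strand, was present in 8 of 14 RD promoters, 1 of 8 variant promoters and 14.2% of 27025 promoters of all genes. CCAAT, bound by NF-Y and also found on either strand, was present in 12 of 14, 5 of 8 and 37.9%. The octamer core TTTGCAT was present in 4 of 14 and 1 of 8 (4.59% of all). Promoters are shown, as DNA of the coding strand with these 2 motifs TATAAA and CCAAT or their reverse complements in capitals, for *Hist1h1b* and *Hist3h2ba*, which differed in the cycle and stage contrasts.
Hist1h1b, chr13:21780576-21780875, minus strand: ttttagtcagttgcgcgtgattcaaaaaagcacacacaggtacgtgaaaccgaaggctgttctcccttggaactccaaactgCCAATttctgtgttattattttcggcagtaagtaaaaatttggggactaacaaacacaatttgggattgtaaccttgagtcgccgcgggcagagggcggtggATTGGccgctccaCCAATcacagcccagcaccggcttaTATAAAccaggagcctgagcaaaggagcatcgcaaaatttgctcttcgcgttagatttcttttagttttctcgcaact
Hist3h2ba, chr11:58948661-58948960, plus strand: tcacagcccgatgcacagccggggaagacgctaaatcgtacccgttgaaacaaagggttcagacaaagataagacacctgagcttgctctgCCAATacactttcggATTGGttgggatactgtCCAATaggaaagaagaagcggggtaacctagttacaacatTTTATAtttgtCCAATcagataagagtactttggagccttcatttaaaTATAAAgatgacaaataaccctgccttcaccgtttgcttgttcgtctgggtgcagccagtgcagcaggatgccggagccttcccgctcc
*Hist1h1b* has 1 TATAAA and 3 CCAAT, and *Hist3h2ba* 2 and 4. The *H1f0* promoter had neither motif. Its window (chromosome 15, 79027962 to 79028261, plus strand) ends before the gene's start in GENCODE M21, at 79028450. A match is a sequence of letters and not a binding site.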

How the data were processed

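Bone marrow cells of 1 WT and 1 Cko mouse were compared by Sc-RNA-Seq. The authors aligned and counted reads with Cell Ranger (version not given in the sources used here), and the submitters' processing notes name GRCm38. The deposited values are raw UMI counts in whole numbers, 1 table per library, and the tables' row and column of sums were removed. Totals were 56382459 UMIs in WT and 34447224 in Cko. No gene with a maximum under 4 UMIs in a cell is listed, so an unlisted gene was not read as 0.

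Cells had 200 or more genes. Doublets called by Scrublet (scanpy 1.11.5, expected rate 5%), which were 2.03% of WT and 1.39% of Cko cells, were kept. The libraries were clustered together (Seurat 5.3.0 in R 4.3.3, 2000 variable genes, 20 components, 20 neighbours, resolution 0.8). Clusters were named for the type with most markers among their 25 leading genes, given 3 or more markers in all and more in the first 10 than any other type. UMIs were summed over cells and divided by all UMIs. Intervals are exact Poisson for levels, binomial for shares and conditional for ratios. On simulated counts for Cko over WT in early B-like cells (4842 genes), 95.4% of the intervals contained the true ratio. Those counts were drawn as Poisson, the form the intervals assume. The simulation therefore checks the calculation only, and says nothing of spread between cells, mice or libraries. A fold of 1.5 with at least 100 UMIs over both groups counted as higher or lower. Members and lists were chosen with earlier results of these data known, and from each list the 3 highest and 3 lowest ratios are named. Alternatives were a total without hemoglobin, separate clustering, resolution 1.6, doublets removed and 500 or more genes per cell. The software was Python 3.11.15 with pandas 2.3.3, numpy 2.4.6, matplotlib 3.10.9 and scipy 1.17.1.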

Additional observations from a re-analysis of the deposited data

Results flagged for a closer look

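In 3 comparisons a member passed the fold in both libraries with ratios of opposite sign in WT and Cko. Other members differed in sign without passing the fold in both, such as *Hist1h1c* S-high over cycle-low (-1.30 in WT and 0.27 in Cko). S-high over cycle-low, *Hist1h2bc* had a log2 ratio of -1.34 in WT and 0.68 in Cko. Last over first erythroid stage, *H1f0* had -1.30 in WT and 1.51 in Cko, and without hemoglobin UMIs in the total 0.48 and 3.25, of the same sign. Mature neutrophil- over promyelocyte-like, *Hist1h1e* had 0.99 in WT and -1.64 in Cko. The differences between the libraries were not tested.

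Histone genes listed in 1 table held UMIs above the limit that a count of 0 allows. In WT these were *Hist2h2aa2* with 1630 UMIs, *Hist1h1d* with 1001, *Hist1h4h* with 867, *Hist1h2bp* with 460 and *Hist1h2af* with 343. In Cko they were *Hist2h2ac* with 346 and *H2afy2* with 97. Their levels in the other library are not known.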

How the results depend on the processing

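The 58 values under alternatives moved by less than their counting interval in 27 cases and by more in 27, and 4 changed sign. In the order last over first stage WT and Cko, mature neutrophil over promyelocyte WT and Cko, RD and variant Cko over WT in erythroid classes, RD and variant Cko over WT in neutrophil classes, the main log2 ratios were 0.96, 1.10, -2.21, -2.71, -0.79, -0.18, -0.71 and -0.06. With each library clustered on its own, last over first stage in Cko was -2.62, mature neutrophil over promyelocyte in WT 0.86, variants in neutrophil classes 0.0362, RD in erythroid classes -1.78 and variants there -0.54. Clusters of erythroid or mature neutrophil cells then went unnamed or changed names. At resolution 1.6, mature neutrophil over promyelocyte was 0.0572 in WT and -1.85 in Cko, last over first stage in Cko 0.98, and the erythroid Cko over WT values -0.91 and -0.28. The cause was not tested.

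Without hemoglobin UMIs, S-high over cycle-low was 1.29 in WT and 2.30 in Cko, last over first stage 2.74 and 2.84, and Cko over WT in erythroid classes -0.73 for RD and -0.12 for variants. With at least 500 genes per cell, S-high over cycle-low in WT was 1.72, last over first stage 1.33 and 1.38, and the erythroid Cko over WT values -0.75 and -0.15. Without doublets these were -0.74 and -0.16. Without *Hist1h2ap*, an alternative added after the data were seen, S-high over cycle-low was 0.61 and 1.72, last over first stage 1.52 and 1.69, mature neutrophil over promyelocyte -1.22 and -1.99, and RD Cko over WT -0.14 and -0.27. Cluster J14, part of the late erythroid-like class, held 239 cells, 209 of them WT. *Acp5*, *Ly6d*, *Retnlg* and *Mmp9* led it, ahead of hemoglobin genes, so its markers were mixed. Without this cluster, an alternative also added later, 4 of 4 values stayed within their counting interval. With at least 300 UMIs in place of 100, fewer RD members were tested for S-high over cycle-low in WT. Then 8 of 8, in place of 16 of 17, passed the fold, with higher and lower members counted together. Leaving out a library was not possible with 1 per genotype. No paired analysis was possible because each genotype has 1 library.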
